A study of Mus musculus with 2 samples.

Results

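Among the open chromatin regions that both kidney libraries shared, 357 were strong in both and held no footprint of either. A shared region is a merged stretch of overlapping peaks with at least 1 peak from each library, taken from the longer of the 2 deposited peak lists. A region counted as strong where its highest deposited signal was 1 or more in both libraries. There were 96746 shared regions, of which 41510 were strong. The 357 regions without a footprint were 0.860% of the strong ones (95% exact binomial interval 0.773 to 0.954%). A footprint of both libraries lay in 40158 strong regions (96.7%) and a footprint of only 1 library in 995 (2.40%). The 357 regions were chosen by the deposited signal and the footprint lists, so their signal and their lack of footprints are description and are not tested. The number depends on using both libraries. With replicate 2 alone, 1762 of its 51174 strong regions met the rule (3.44%), and with replicate 1 alone, 1541 of 52015 (2.96%). These counts can also include regions that were not shared or not strong in the other library. Of the 41510 strong shared regions, 773 held no footprint of replicate 1 and 936 none of replicate 2.

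DNase I cuts DNA that is not wrapped in nucleosomes or covered by protein, so dense cutting marks promoters, enhancers and insulators that are open. Inside such a region, a bound transcription factor can shield a short stretch from the enzyme, and this dip in cutting is called a footprint. Factors that stay on DNA briefly can leave little or no footprint, and promoters of broadly used genes often have a wide open stretch around the transcription start site (TSS).

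DNase-seq was done on kidney tissue of female mice of the B6CASTF1/J strain, 8 to 10 months old, a first-generation cross of C57BL/6J and CAST/EiJ. The 2 libraries form 1 group, kidney, and are numbered biological replicates 1 and 2. They come from separate tissue samples that share 1 donor entry, so the spread between them may be partly technical. Reads of the CAST/EiJ chromosomes may map less well to the C57BL/6J reference, and the effect of this on the regions was not tested. The label was checked against marker promoters: of 35 markers of tubule, podocyte and endothelial cells, 29 had a shared region at a promoter, against 1 of 17 markers of immune cells, liver, muscle, neurons, urothelium and adrenal cortex. Of 5 stromal and mural markers, 3 had one, and of 8 housekeeping genes, 8 did. In bulk tissue, fewer cells with an open region and a less open region in each cell cannot be told apart. With a single group there is no test across samples. Shares below carry exact binomial intervals, which cover counting error only, and regions are not replicates of a condition.

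Each member was set beside strong regions of the same signal that held footprints of both libraries. There were 24447 such regions in the members' range of mean signal (1 to 3), and they held a median of 3 footprints in each library. Shares of the footprinted regions were weighted so that their distribution over 3 bins of mean signal equalled that of the members. All coordinates are 1-based on mm10 (GRCm38).

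The sequences below are of 4 of the strongest members and of 3 footprinted regions of like signal. Each line gives the 200 bases around a region's centre on the plus strand, 5′ to 3′. For the first 4, members without a footprint, capitals mark CpG dinucleotides. They are the region near Fam92b at chr8:120190861-120191060, with 0 CpG, and those at the promoters of Lrrc61 at chr6:48555111-48555310, with 4, of Emsy at chr7:98655821-98656020, with 24, and of Jup at chr11:100397171-100397370, with 13.
Fam92b: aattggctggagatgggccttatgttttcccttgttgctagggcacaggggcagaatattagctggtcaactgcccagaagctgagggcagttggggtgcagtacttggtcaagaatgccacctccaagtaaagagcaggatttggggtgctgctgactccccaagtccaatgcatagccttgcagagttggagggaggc
Lrrc61: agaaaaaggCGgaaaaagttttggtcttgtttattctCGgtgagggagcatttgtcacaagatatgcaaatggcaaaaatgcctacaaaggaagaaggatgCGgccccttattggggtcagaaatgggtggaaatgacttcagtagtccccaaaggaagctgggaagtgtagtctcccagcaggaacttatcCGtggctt
Emsy: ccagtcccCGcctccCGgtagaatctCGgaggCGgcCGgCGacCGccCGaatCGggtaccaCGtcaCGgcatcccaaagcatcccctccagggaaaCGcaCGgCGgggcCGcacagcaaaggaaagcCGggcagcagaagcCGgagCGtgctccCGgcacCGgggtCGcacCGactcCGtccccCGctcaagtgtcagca
Jup: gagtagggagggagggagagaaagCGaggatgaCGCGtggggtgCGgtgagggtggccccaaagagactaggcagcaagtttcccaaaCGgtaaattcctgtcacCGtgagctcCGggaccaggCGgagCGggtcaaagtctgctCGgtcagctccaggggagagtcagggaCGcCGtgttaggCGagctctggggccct
The next 3 are the footprinted regions nearest in mean signal to the strongest 3 members (Sin3a, which is not printed, Fam92b and Lrrc61). They are named by the nearest TSS, and lie near Asb13 at chr13:3665471-3665670, near Fam20a at chr11:109700851-109701050 and near Myzap at chr9:71635021-71635220. Their centres are 31539, 21305 and -42761 bases from that TSS, whereas the members at Lrrc61, Emsy and Jup are at promoters. The 2 sets therefore differ in place as well as in footprints. Capitals mark the bases that footprints of both libraries covered.
Asb13: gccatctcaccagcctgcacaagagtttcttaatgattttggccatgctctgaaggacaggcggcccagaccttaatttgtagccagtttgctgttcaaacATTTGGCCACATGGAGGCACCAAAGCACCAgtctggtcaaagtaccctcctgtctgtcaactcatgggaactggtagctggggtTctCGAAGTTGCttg
Fam20a: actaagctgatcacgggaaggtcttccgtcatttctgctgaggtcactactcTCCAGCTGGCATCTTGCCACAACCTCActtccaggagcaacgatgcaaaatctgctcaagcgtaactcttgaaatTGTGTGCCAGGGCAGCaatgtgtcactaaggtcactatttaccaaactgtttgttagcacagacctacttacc
Myzap: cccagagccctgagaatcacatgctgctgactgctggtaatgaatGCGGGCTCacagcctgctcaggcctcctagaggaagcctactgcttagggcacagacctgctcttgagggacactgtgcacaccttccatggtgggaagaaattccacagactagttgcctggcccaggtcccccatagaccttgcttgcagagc
Footprints of both libraries covered 40 of the 200 bases near Asb13, 43 near Fam20a and 8 near Myzap.

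Regions without a footprint were commonest at low signal. The members' signal ran from 1.00 through a median of 1.26 to 3.37 in replicate 1, and from 1.00 through 1.38 to 2.95 in replicate 2. In the bin with a mean signal of 1 to 1.5, 257 of 7991 strong regions (3.22%, interval 2.84 to 3.63%) had no footprint. The share was 80 of 8334 (0.960%) at 1.5 to 2 and 20 of 9460 (0.211%) at 2 to 3. None of the 7458 regions at 3 to 5 lacked a footprint in both libraries, which allows a share of up to 0.0402%. Likewise, none of the 5654 at 5 to 10 and none of the 2613 at 10 or more did. Below the rule's threshold, 5588 of 55236 shared regions (10.1%) had no footprint. The peak signal and the footprints come from the same cuts, so these readouts are not independent.

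**Figure D1:**
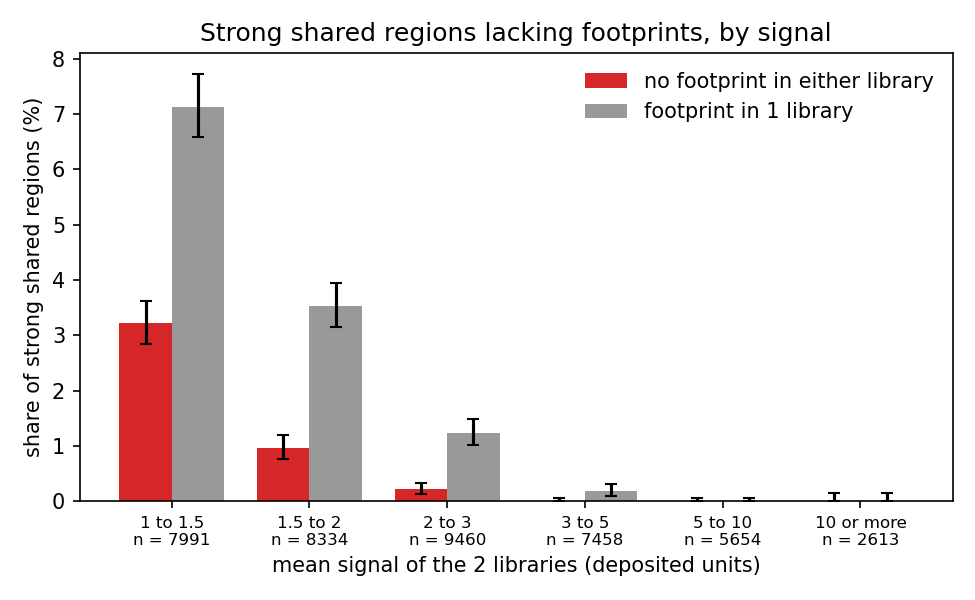
Share of strong shared regions (y axis, percent) without a footprint in either library (red) or with a footprint in 1 library (grey), by the mean deposited signal of the 2 libraries (x axis). Error bars are 95% exact binomial intervals. Regions without any footprint fall from 3.22% in the lowest bin to 0.211% at a signal of 2 to 3, and none is seen above that.

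The threshold cuts through a continuous range, and several regions tie at the values on each side of it. In the 5 members named just above it, the weaker library read 1.00 and the stronger between 1.01 and 1.76. They lie in the coding sequence of Fam120c and at promoters of Tmem170b, of Dcun1d4, of Lmbrd2 and Skp2 (Skp2 is an F-box protein of a ubiquitin ligase), and of Aldh2, a mitochondrial aldehyde dehydrogenase. Just below it, 4 regions without a footprint read 0.992 in replicate 1. They were at promoters of Pcgf6 (a Polycomb subunit), Usp21 (a deubiquitinase), Il3ra (a cytokine receptor chain) and E2f8 (a transcription factor of the cell cycle).

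Of the 12 strongest members, 9 overlapped a promoter window, defined as the 500 bases on each side of a protein-coding TSS. The strongest lay in an intron of Sin3a, the scaffold of a histone deacetylase corepressor complex, at chr9:57075241-57075500. It read 2.99 in replicate 1 and 2.83 in replicate 2 (mean 2.91 ± 0.11, SD, n = 2). Its centre was 33 bases downstream of a transcript start that is internal to the gene, 3331 bases from the gene's annotated 5′ end. The next open region, 100 bases away, was weaker (0.761 and 0.575) and also had no footprint.

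The member far upstream of Fam92b (centre at -13495 bases from its TSS), at chr8:120190781-120191140, read 3.37 and 2.28 (2.82 ± 0.76, n = 2). A stronger region 80 bases away read 5.11 and 6.79 and held 5 and 4 footprints. At Lrrc61 (chr6:48555081-48555340), the member read 2.65 and 2.03 and was centred 382 bases downstream of the nearest TSS. The region over that TSS, 140 bases away, read 8.32 and 11.2 and held 6 and 4 footprints. Both pairs show a footprinted region with an unfootprinted one beside it.

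The same layout was seen at Actl6a, Emsy, Atg4d, Jup and Smim4. At Emsy, which encodes a BRCA2-binding repressor, the member (chr7:98655701-98656140) read 1.93 and 2.63, was centred 625 bases downstream of the nearest TSS and lay 360 bases from a region of 15.4 and 9.80 with 12 and 11 footprints. At Jup, which encodes the junction protein plakoglobin, the member (chr11:100396961-100397580) read 1.93 and 2.42. The region 180 bases away was 11.0 times stronger, at 26.5 and 21.2, with 6 and 4 footprints. At Atg4d, an autophagy protease, the member (chr9:21265621-21265980) read 2.27 and 2.22, and the region 300 bases away read 13.9 and 12.8 with 6 and 4 footprints. At Smim4 (chr14:31128081-31128600) the member read 2.16 and 2.18 beside a region of 12.4 and 8.96.

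The libraries agreed least among these 12 at Actl6a, an actin-like subunit of chromatin remodelling complexes. Its member (chr3:32708841-32709220) read 1.61 in replicate 1 and 2.95 in replicate 2 (2.28 ± 0.95, n = 2), and the region over the TSS, 160 bases away, read 12.6 and 14.6. At Tubb4b, a beta-tubulin gene, the member in the coding sequence (chr2:25223741-25224140) read 2.61 and 1.80. Its neighbour 20 bases away was only 1.27 times stronger and had a single footprint, in replicate 1.

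In the other 4 of the 12 no stronger region was the nearest one under 500 bases away. Sin3a was 1 of these. At Zfp524, a zinc finger gene, the member (chr7:5015661-5015920) read 2.04 and 2.62 and its nearest region 1.04 and 0.867. At Eif4e, the cap-binding translation factor, the member (chr3:138526321-138526580) read 2.15 and 2.38, 26 bases downstream of a TSS. Its nearest region was stronger, at 14.4 and 12.1 with 6 and 6 footprints, but lay 540 bases away, just beyond the 500-base limit. Near Aftph, an endosomal trafficking gene, the member (chr11:20742321-20742580) read 2.37 and 2.14 and its neighbour 1.07 and 2.73, with 0 and 3 footprints. Sin3a, Zfp524 and Eif4e were centred within 33 bases of an annotated TSS, so a place beside the TSS was not common to all members. In each case that TSS was not the gene's annotated 5′ end, which lay 3331, 1376 and 272 bases upstream of the centre.

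The rule used the signals of both libraries, so their ratio is given as description. Replicate 2 read higher in 230 of the 357 members. None differed over 2-fold between the libraries, where 11.9% of all shared regions did. The threshold of 1 in both libraries bars or limits such a ratio at the members' signal, so nothing is read from this count. The largest ratio was 1.93, in an intergenic region near Odf4 (centre at -12297 bases from its TSS) that read 2.49 in replicate 1 and 1.29 in replicate 2.

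**Figure D2:**
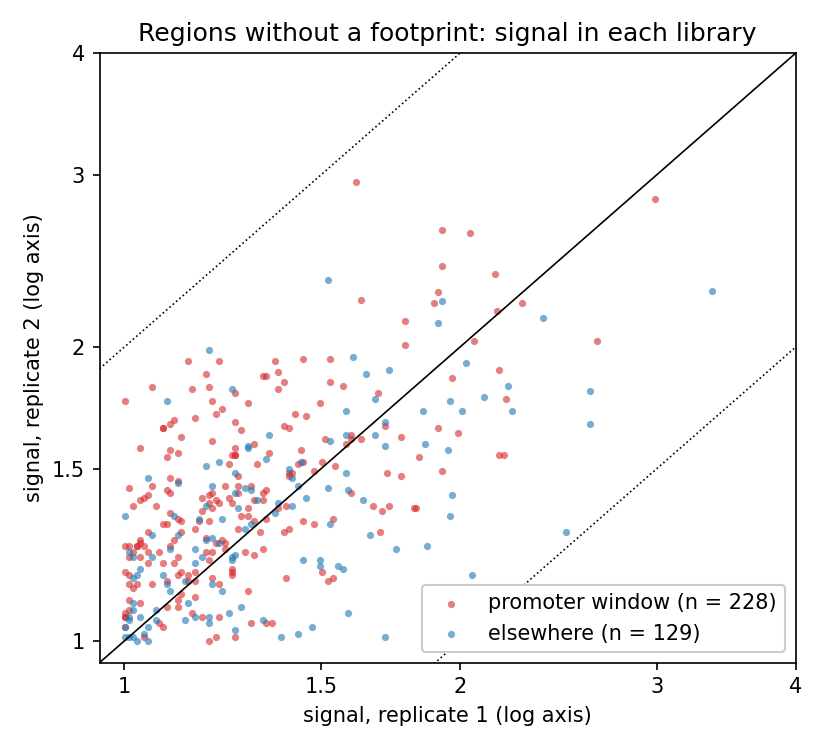
Deposited signal of each of the 357 members in replicate 1 (x axis) and replicate 2 (y axis), both on log axes, for 228 members in promoter windows (red) and 129 elsewhere (blue). The solid line marks equal signal and the dotted lines a 2-fold difference. Every point lies between the dotted lines, and the rule leaves out regions below 1 in either library.

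Most members lay at promoters. A promoter window was overlapped by 228 of 357 (63.9%, interval 58.6 to 68.9%), against 14.7% of footprinted regions of the same signal. Members outside promoter windows were in exons in 19 cases, in introns in 57 and between genes in 53. As shares of all 357 members these were 5.32, 16.0 and 14.8%, against 9.49, 39.9 and 35.9% of all footprinted regions. The members' larger promoter share leaves less for each of these classes. With promoter members included, centres lay in coding sequence in 8.12% (against 3.63%), UTRs in 9.52% (against 6.49%) and other exons in 5.60% (against 1.60%). They lay in introns in 56.0% (against 47.7%) and outside protein-coding genes in 20.7% (against 40.6%). Regions with a footprint in 1 library only were at promoters in 405 of 995 cases (40.7%). The promoter members overlapped windows of 250 genes, and 25 of them (11.0%, against 3.59%) touched windows of more than 1 gene. None of the listed marker or housekeeping genes was among these 250, and at so few genes in all this says nothing about the lists.

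The promoter result depended on how far from the TSS a promoter reached. With windows of 100 bases on each side, 18.8% of members and 10.6% of footprinted regions were at promoters, and with 1000 bases 79.6% and 18.8% were. A TSS lay inside 46 members (12.9%, interval 9.59 to 16.8%), against 9.30% of footprinted regions. The members were therefore around promoters more than on the TSS itself. Where footprinted regions were matched on a stronger neighbour as well as on signal, 31.2% of them were at promoters.

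Most promoter members were centred downstream of the nearest TSS, which was often not the annotated start of its gene. The centre was downstream of the nearest TSS in 166 of 228 (72.8%, interval 66.5 to 78.5%), against 43.7% of footprinted promoter regions of the same signal and 55.1% of those matched on a stronger neighbour as well. It was 200 to 600 bases downstream in 122 (53.5%, interval 46.8 to 60.1%, against 17.1%). It was within 200 bases on either side in 46 (20.2%, interval 15.2 to 26.0%, against 66.2%). The median place was 345 bases downstream in members and 14 bases upstream in footprinted regions. The nearest TSS was the annotated 5′ end of its gene in 73 promoter members, and another transcript start in the rest. Of these 73, 47 (64.4%, interval 52.3 to 75.3%) were centred downstream of it. No share of footprinted regions was worked out for this subset.

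**Figure D3:**
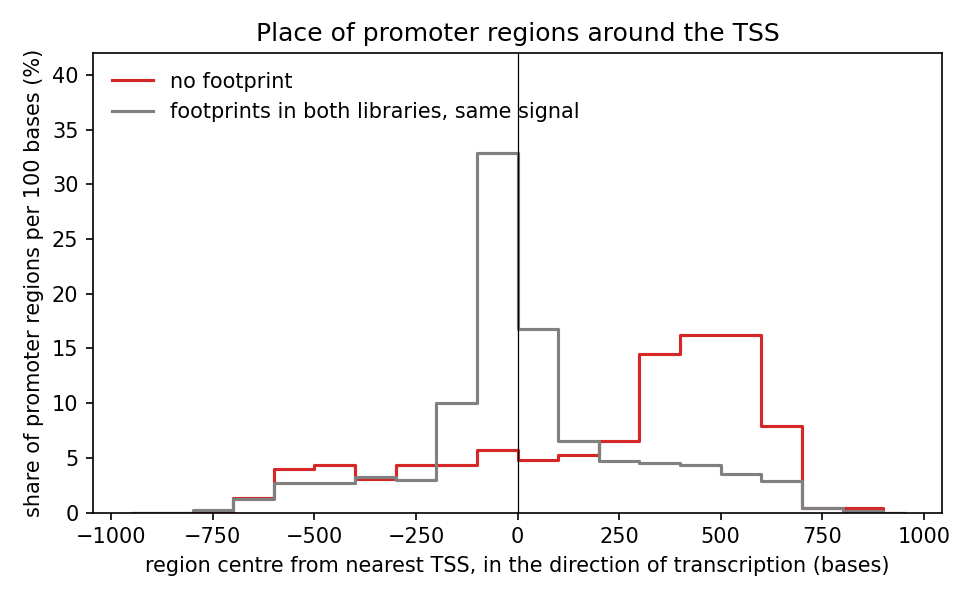
Share of promoter regions per 100 bases (y axis, percent) by the distance of the region's centre from the nearest TSS, positive in the direction of transcription (x axis, bases), for 228 members (red) and footprinted promoter regions of the same signal (grey). Footprinted regions peak just upstream of the TSS, and members 300 to 600 bases downstream of it.

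Members outside promoter windows also lay near TSSs more often than footprinted regions did. Of these 129, 43 were centred up to 2000 bases downstream of the nearest TSS (33.3%, interval 25.3 to 42.2%, against 6.45%) and 28 up to 2000 bases upstream (21.7%, interval 14.9 to 29.8%, against 4.16%). The remaining 58 (45.0%) were 2000 bases or more from any protein-coding TSS, against 89.4% of footprinted regions outside promoter windows.

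The members sat beside stronger open regions. Another shared region was under 500 bases away from 321 members (89.9%, interval 86.3 to 92.8%), against 24.7% of footprinted regions of the same signal. The nearest region was both under 500 bases away and stronger in 294 (82.4%, interval 78.0 to 86.2%), against 11.0%. Regions with a footprint in 1 library only lay between these sets, with a stronger nearest region under 500 bases away in 587 of 995 (59.0%) and CpG-rich centres in 29.6%. In 286 members (80.1%) that stronger region held footprints of both libraries, against 10.8%. The median gap was 220 bases for members and 1960 for footprinted regions, and the nearest region had a median of 4.87 times the member's signal, against 0.895 times.

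**Figure D4:**
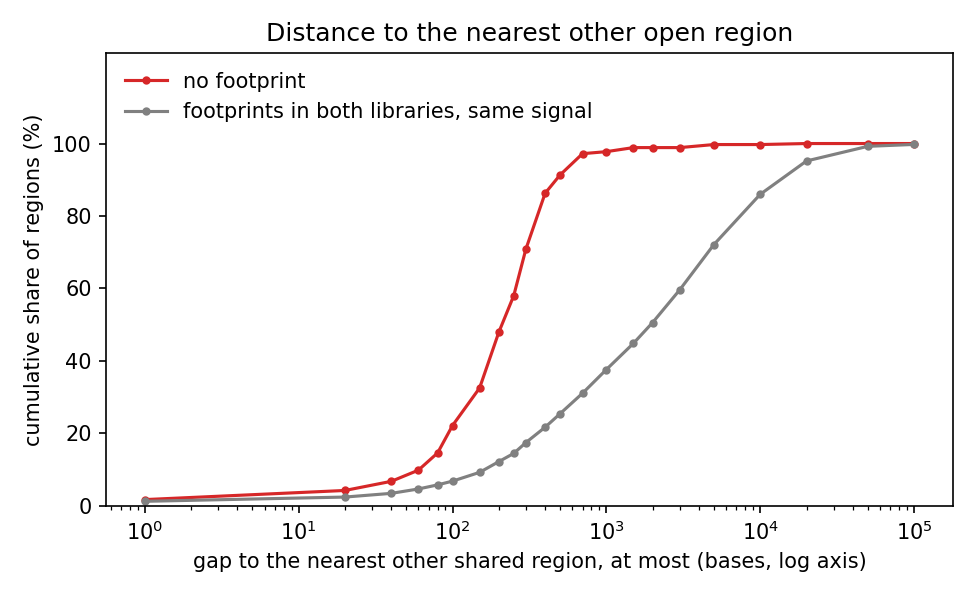
Cumulative share of regions (y axis, percent) whose nearest other shared region lies at most the given gap away (x axis, bases, log scale), for 357 members (red) and footprinted regions of the same signal (grey). The members' curve rises steeply between 100 and 400 bases, with a median of 220, and the grey curve reaches its median at 1960.

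Most members and their stronger neighbours lay within 1 continuous stretch of significant cutting. The authors' deposited list of false discovery rates (FDR) gives runs of bases with significant cutting, at an FDR under 0.05. Of 290 members with a stronger nearest region under 500 bases and at least 1 base away, every base in between was listed in 281 in replicate 1 (96.9%, interval 94.2 to 98.6%) and in 282 in replicate 2 (97.2%, interval 94.6 to 98.8%). Of footprinted regions of the same signal with such a neighbour, 38.7% and 48.9% were joined to it in this way. The peak lists split these stretches into separate peaks.

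At promoters the stronger region was the one over the TSS. Of 203 promoter members with such a neighbour, the neighbour held a TSS in 164 (80.8%, interval 74.7 to 86.0%) and was centred nearer to its own nearest TSS than the member was in 168 (82.8%, interval 76.8 to 87.7%, against 63.0%). For the 149 of these that lay downstream of the TSS, the neighbour was centred within 200 bases of a TSS in 129 (86.6%). Promoter members had a stronger nearest region under 500 bases away in 203 of 228 cases (89.0% against 26.4%) and other members in 91 of 129 (70.5% against 8.39%). Of the 58 members 2000 bases or more from a TSS, 46 had one, so the layout was also found away from promoters. The 357 members had 356 distinct nearest regions, and for 4 members the nearest region was itself a member.

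Footprints were absent from the members but near them. A footprint of replicate 1 lay under 500 bases outside 317 members (88.8%, against 26.7%) and 1 of replicate 2 outside 323 (90.5%, against 28.3%). The median distance to the nearest footprint was 223 and 207 bases, against 1607 and 1633.

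Seen from the other side, the share of regions without a footprint rose with this setting. Among strong regions with a mean signal of 1 to 3, 294 of 3258 with a stronger nearest region under 500 bases away had no footprint (9.02%, interval 8.06 to 10.1%). Without such a neighbour, 63 of 22527 had none (0.280%, interval 0.215 to 0.358%). Where the region was also centred 200 to 600 bases downstream of a TSS, 111 of 575 had none (19.3%, interval 16.2 to 22.8%), and at the same distance upstream 31 of 263 (11.8%, interval 8.15 to 16.3%). At 2000 bases or more from a TSS the share was 46 of 1304 (3.53%). In the lowest signal bin alone, 1 to 1.5, 84 of 244 regions beside a stronger one and 200 to 600 bases downstream of a TSS had no footprint (34.4%, interval 28.5 to 40.8%). Even in that setting, most regions held a footprint in at least 1 library.

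The members were wide for their signal. Their median width was 340 bases, against 240 for footprinted regions. The share without a footprint was 0.605% of regions 200 to under 300 bases wide and 3.99% (126 of 3160) of those 400 bases or wider. A wider region offers more bases in which a footprint could be called. More than 1 peak of a library was joined in 29 members (8.12%, against 4.42%).

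The shorter peak lists held the members about as often as footprinted regions of their signal, and the FDR lists covered all their bases more often. A peak of the shorter, stricter list overlapped 335 in replicate 1 (93.8%, against 93.6%) and 337 in replicate 2 (94.4%, against 91.2%). Every base was listed at an FDR under 0.05 in 319 (89.4%, interval 85.7 to 92.4%, against 81.6%) and 325 (91.0%, interval 87.6 to 93.8%, against 81.1%). The median of the lowest FDR in a region was 9.27e-10 in replicate 1 and 5.72e-10 in replicate 2 for members, and 6.14e-10 and 6.42e-09 for footprinted regions.

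Members were rich in CpG, the dinucleotide that is kept unmethylated in most vertebrate CpG island promoters. A CpG-rich centre, with a GC share of at least 50% and an observed to expected CpG ratio of at least 0.6 over 200 bases, was found in 166 members (46.5%, interval 41.2 to 51.8%), against 11.8% of footprinted regions of the same signal. The median GC share was 58.5% against 53%. Matching on a stronger neighbour as well raised the footprinted share to 21.1%. At promoters alone the difference was smaller, with 136 of 228 members (59.6%, interval 53.0 to 66.1%) against 51.5%. Outside promoter windows it was 30 of 129 (23.3%, interval 16.3 to 31.5%) against 4.92%. The CpG content of members varied widely, as in the 0 CpG of the 200 bases near Fam92b and the 24 of those at Emsy, both printed above.

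CpG content and the stronger neighbour were both associated with lack of a footprint. With mean signals of 1 to 3, 141 of 1081 CpG-rich regions beside a stronger one had no footprint (13.0%), as did 153 of 2177 regions that were beside a stronger one but not CpG-rich (7.03%). Of regions with no such neighbour, 25 of 2976 CpG-rich ones (0.840%) and 38 of 19551 others (0.194%) had none. These shares were not split by promoter windows, so the part of promoter position in the CpG association was not tested. Few members were repeats: over 50% of the bases were soft-masked in 2 members (0.560%, interval 0.0679 to 2.01%, against 2.39%), which lie near Prx and Supt5.

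Searches for 24 consensus motifs, on both strands of the 200 bases around the centre, describe which sequences the members carry. A match is a description of the letters and not evidence of a bound factor. The members' interval excluded the share in footprinted regions of the same signal for 12 motifs, with members lower for 8 and higher for 4. When footprinted regions were weighted to the members' signal and CpG class together, this held for 4 motifs, with members lower for 3 and higher for 1. The 24 intervals were not adjusted for their number.

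The CTCF motif, bound by the main insulator protein of mammals, was nearly absent from the members. It was found in 1 of 357 members (0.280%, interval 0.00709 to 1.55%), in 4.69% of footprinted regions of the same signal, in 3.26% at the same signal and CpG class, and in 5.54% of all shared regions. Footprinted regions matched on signal and width held it in 2.33%, and so did those matched on signal and a stronger neighbour, with the difference, members minus footprinted, going from -4.41 to -2.05 percentage points in both. At promoters the shares were 0.439% and 0.986%, and elsewhere 0 of 129 members and 5.36%, so the difference was larger outside promoters than at them. Members were also at promoters more often (63.9% against 14.7%), where footprinted regions held the motif less often. How much of the difference came from this was not worked out. The single member with the motif lies at a promoter of Atp2c1, a Golgi calcium pump, and was chosen for display after its values were seen. It read 1.33 and 1.39, its nearest region 580 bases away read 8.14 and 7.92, and the motif stands in capitals in its central 200 bases at chr9:105495871-105496070, plus strand.
Atp2c1: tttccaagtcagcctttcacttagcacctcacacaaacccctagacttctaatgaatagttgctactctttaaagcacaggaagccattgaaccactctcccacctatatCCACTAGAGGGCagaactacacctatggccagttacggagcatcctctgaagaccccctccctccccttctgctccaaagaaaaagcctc
This sequence holds an exact match to the motif and no footprint of either library.

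The AP-1 motif TGANTCA, bound by Fos and Jun dimers, was found in 12 members (3.36%, interval 1.75 to 5.80%), against 7.50% at the same signal, 5.84% at the same signal and CpG class (just above the upper bound), and 6.93% of all shared regions. At promoters it was in 3.07% of members and 3.91% of footprinted regions, and elsewhere in 5 of 129 members (3.88%) and 8.11%. The NFI half-site TTGGCA was found in 11.2%, against 19.1%, and the GATA motif AGATAA in 3.36%, against 5.85%. Members were also lower than footprinted regions of the same signal for the E-box CAGCTG (13.2% against 18.04%), the TEAD motif CATTCC, the IRF motif GAAANNGAA and the TATA box TATAAA (2.52% against 5.36%). All of these but CTCF and AP-1 fell inside the members' interval once CpG class was matched.

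The ETS motif CCGGAAG, common in promoters of broadly expressed genes, was found in 23 members (6.44%, interval 4.13 to 9.51%), against 2.59% at the same signal, 4.03% at the same signal and CpG class (just below the lower bound), and 3.88% of all shared regions. At promoters it was in 7.02% of members and 5.47% of footprinted regions, and elsewhere in 7 of 129 members (5.43%) and 2.07%. The strongest member, at Sin3a, held the ETS motif, as did that at Actl6a. The SP/KLF motif CCCGCCC turned with the comparison. It was in 56 members (15.7%, interval 12.1 to 19.9%), above the 9.38% at the same signal and below the 20.7% at the same signal and CpG class. At promoters alone it was in 17.98% of members and 32.5% of footprinted regions. The YY1 motif AAGATGGC (2.24% against 0.940%) and the E-box CACGTG (8.68% against 5.63%) were higher in members at the same signal. At the same signal and CpG class the footprinted shares were 1.23% and 6.25%, still lower than in members but inside the members' intervals.

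Motifs of the nephron's own factors were rare in both sets. The HNF4 motif CAAAGTCCA was in 4 members (1.12%, against 1.53%), near Slc17a8 and Cx3cl1 and at promoters of Dixdc1 and Zfp949. The HNF1 motif GTTAATNAT was in 1 (0.280%, interval 0.00709 to 1.55%, against 1.48%), at a promoter of Rprd2. The ERR motif TCAAGGTCA was in 1, at a promoter of Sirt3, a mitochondrial deacetylase. These shares lay inside the members' intervals, which are wide at 357 regions. The CRE motif TGACGTCA and the NRF1 motif CGCATGCGC were in 0 of 357 members, which allows shares of up to 0.840%, and footprinted regions held them in 0.501% and 0.291%.

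**Figure D5:**
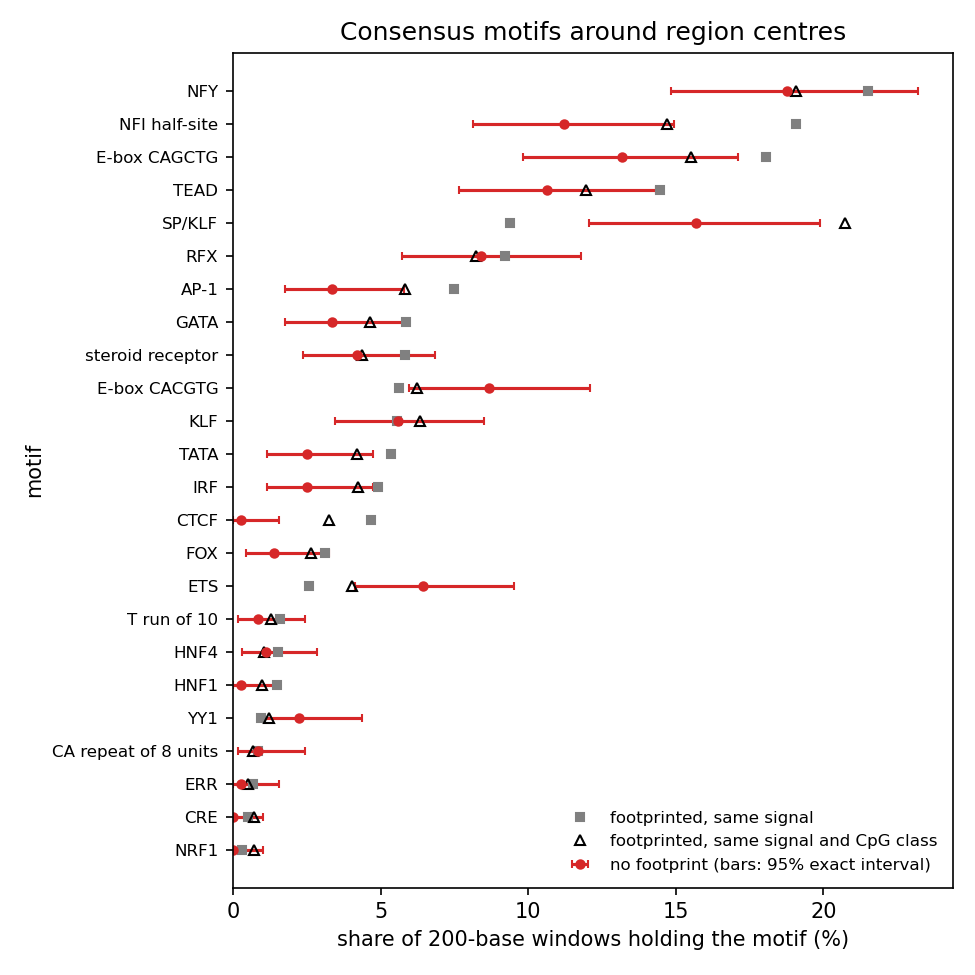
Share of the 200-base windows around region centres that hold each of 24 motifs (x axis, percent; motifs on the y axis), in members (red points with 95% exact binomial intervals), in footprinted regions of the same signal (grey squares) and in footprinted regions of the same signal and CpG class (open triangles). Of the motifs whose interval excludes both footprinted shares, CTCF and AP-1 lie below both, ETS above both, and SP/KLF between them.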

How the data were processed

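DNase-seq of kidney gave 2 libraries of 1 group. For each library the authors deposited 2 peak lists with a signal value per peak, a list of FDR values (q-values) under 0.05 along the genome, and footprints that all carry 0.01, a p-value or q-value level, on mm10, per the file headers. The longer lists held 137083 and 125000 peaks, and the footprint lists 316362 and 312966 footprints. The aligner is not given in the sources used here, nor is either caller. The total depth is not stated in the files.

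Peaks of the longer lists that overlapped by at least 1 base were merged, and each library's highest signal was kept. TSSs of protein-coding transcripts came from GENCODE M21, sequence and soft-masking from the RefSeq copy of GRCm38.p6. A region overlapping a promoter window counted as promoter, else as exonic if it touched an exon, else as intronic or intergenic. Footprinted regions were weighted by bins of mean signal (1 to 1.5, 1.5 to 2, 2 to 3). Intervals are exact (Clopper-Pearson, 95%) and cover counting error only. A count of 0 allows up to 3 counts of the total. The code was tested on simulated intervals (Python 3.11.15, numpy 2.4.6, pandas 2.3.3, scipy 1.17.1).

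The members, gene lists and motifs were chosen with earlier results of these data known. Named are the 12 strongest members, the 8 strongest at promoters, the 5 nearest to each side of the threshold, members at promoters of listed marker or housekeeping genes, and footprinted regions nearest in signal to the strongest 3. Of those just below the threshold, 1 is not reported here. Others named were chosen after their values were seen. A region takes the name of the gene whose promoter window it overlaps, otherwise of the nearest TSS. Sequences overlapping UTRs or exons of noncoding transcripts, and chromosome 18, were not printed. Alternatives were another signal threshold, a 50-base margin, the shorter peak lists, 50% overlap, each library alone, other promoter windows, CpG over the whole region and matching on width. Matching on a stronger neighbour or on CpG class was added after seeing the data.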

Additional observations from a re-analysis of the deposited data

How the results depend on the processing

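Of 71 alternative values, 36 moved by less than their interval or kept within 1.5 times of the count, 35 moved, and no difference changed sign. At a signal of at least 2 in both libraries, 9 members were left (0.0450% of strong regions), with differences to footprinted regions (members minus footprinted, percentage points) of 6.99 for CpG-rich sequence, 33.3 for a stronger neighbour, 49.0 for a centre downstream of the TSS and 0 for 2-fold differences. With overlap of at least 50% of both peaks, the share was 0.764%, the 2-fold difference -3.72 and the CTCF difference -4.69, and with the shorter lists the 2-fold difference was -3.55. With 1 library alone, the number was 1541 to 1762, the share 2.96 to 3.44%, and the differences were 32.2 to 37.4 points for promoters, 22.8 to 29.5 for CpG-rich sequence, -2.58 to -1.32 for repeats, 51.4 to 53.6 for a stronger neighbour and -7.31 to -5.71 for CTCF. A difference of 2-fold between libraries, which the threshold limits, has no value with 1 library. The promoter difference of 49.2 points became 8.14 with windows of 100 bases, 60.8 with 1000, 43.1 with width matched and 32.7 with a stronger neighbour matched. The downstream difference of 29.1 became 17.0, 22.2 and, with a stronger neighbour matched, 17.7. With a stronger neighbour matched, the differences were 25.4 for CpG-rich sequence, -1.71 for 2-fold and -2.05 for CTCF, and with width matched 66.4 for a stronger neighbour and -2.05 for CTCF. With CpG class matched, CTCF gave -2.98. The cause of these shifts was not tested. No paired analysis was possible because there is 1 group. The total depth is unknown, and its part in the missing footprints was not tested.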
